A study of Rattus norvegicus with 32 samples.

Results

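The genes described here are 7 genes of the p53 pathway, Mdm2, Cdkn1a, Gadd45a, Gadd45b, Gadd45g, Ccng1 and Siva1. They were chosen by name, and every probe that the annotation of the array platform pairs with one of these symbols was taken. This gave 10 of the 33849 probes on the array and 6 of the 7 genes, out of 12573 genes named by the annotation. Ccng1 had 3 probes, Mdm2 and Cdkn1a had 2 each, Gadd45a, Gadd45b and Siva1 had 1 each, and Gadd45g had none. After the filter on dim probes, 9 of the 10 probes and 17631 of all probes entered the tests. Probes of the same gene share a transcript, so they are not independent measurements, but each is given singly because they do not all behave alike.

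RNA was measured in pyramidal neurons of the CA3 subfield of the rat hippocampus. The neurons were not stained by Fluoro-Jade (FJ), a dye that marks degenerating neurons, and were cut out of brain sections by laser capture microdissection. The rats were adult male Sprague-Dawley rats in 4 treatment groups, each studied at 4 and 24 h, so that there were 8 groups. Sham rats had the surgical preparation without the injury. TBI rats received saline and a fluid percussion injury, in which a pulse of fluid strikes the exposed dura. TBI+MT rats received the same injury and metyrapone (MT, 100 mg/kg), which blocks the last step of corticosterone synthesis. TBI+CB rats received the injury and carbenoxolone (CB, 30 mg/kg), which blocks the enzyme that regenerates corticosterone inside cells. Drugs and saline were injected subcutaneously before the injury, 90 min before it according to the sample labels, whereas the methods of the study state a shorter interval. The labels count the 4 and 24 h from treatment and the methods count them from surgery. The 4 h sham rats are labelled untreated, and the label of the 24 h sham rats names no agent, whereas the methods of the study state that sham rats received saline. Each drug was given at 1 dose, and no group received a drug without injury. Each group comprised 2 pools of RNA from 3 to 6 rats, and each pool was hybridised to duplicate arrays (16 pools, 32 arrays). A pool value is an average over rats, so p-values reflect the spread between pools and not between animals.

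Levels are raw spot intensities divided by the median intensity of the same array, so that a level of 1 is the intensity of the median probe. A spot that the scanner software marks as near background gives only an upper bound. Array medians ran from 9.41 to 67.1 intensity units, and 26.0% to 65.9% of the probes on an array were above background. Duplicate arrays correlated with a median r of 0.975 and the pools of a group with 0.873. TBI+CB 24 h pool 2 and TBI+MT 24 h pool 1 were the dimmest pools, with array medians of 9.53 and 10.1. The leading digits of the slide numbers in the array headers fall into 3 sets, called slide runs here. They were used as batches, although no source states that they are. Run 1 held the 4 h sham pools and TBI 4 h pool 1, run 2 held the other 4 h pools with the 24 h sham and TBI pools, and run 3 held both 24 h drug groups. For the 24 h drug groups against TBI or sham, and for the 4 h drug groups against sham, run and treatment therefore cannot be told apart. Between sham at 24 h and sham at 4 h, run and time cannot be told apart. The markers of pyramidal neurons Slc17a7, Camk2a and Grik4 were above background on all 32 arrays. So were the astrocyte markers Gfap, Slc1a3, Gja1 and S100b, the microglial Tyrobp, the oligodendrocyte markers Mag and Cnp and the endothelial Pecam1 and Flt1. The pyramidal markers Neurod1 and Bok were above background on 26 and 29 arrays. The remaining markers of other cells that passed the filter were so on 14 (Sst) to 31 arrays. Among those that did not pass were Snap25, Mbp, Olig2 and P2ry12.

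The p53 protein is a transcription factor that is stabilised when DNA is damaged or a cell is otherwise stressed, and it then raises transcription of genes that stop the cell cycle, repair DNA or start apoptosis. Mdm2 encodes the ubiquitin ligase that sends p53 to degradation and is itself a p53 target, which closes a feedback loop. In neurons, which have left the cell cycle, the pathway is known mainly for its part in death after excitotoxic or ischemic injury.

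Because all of these genes are known or proposed p53 targets, their promoters were searched for the p53 decamer, the 10-base unit of the p53 response element. The windows were RefSeq promoters of the rat build GRCr8, 300 bases long, with 250 bases before and 50 after the start of the RefSeq transcript used, and all 7 genes had one. The decamer was found in 3 of the 7 windows, those of Cdkn1a, Gadd45a and Ccng1, against 7.98% (2671) of all 33469 promoter windows. It lay 201 to 192 bases before the start in Cdkn1a, 48 to 39 before it in Gadd45a and 232 to 223 before it in Ccng1. The stretches that hold it are shown 5′ to 3′ on the strand of the gene, with the decamer in capitals:
Cdkn1a, chr20:7150682-7150781, plus strand: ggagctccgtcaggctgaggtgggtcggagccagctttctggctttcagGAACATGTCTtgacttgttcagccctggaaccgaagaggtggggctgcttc
Gadd45a, chr4:97486800-97486899, minus strand: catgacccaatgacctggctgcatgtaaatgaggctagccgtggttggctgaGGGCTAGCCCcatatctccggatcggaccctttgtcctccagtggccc
Ccng1, chr10:25685027-25685126, minus strand: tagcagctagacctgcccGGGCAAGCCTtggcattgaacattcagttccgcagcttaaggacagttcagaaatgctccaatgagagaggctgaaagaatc

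Other motifs were searched on both strands of the same windows. The CCAAT box (CCAAT) was present in Mdm2, Gadd45a, Gadd45b, Gadd45g and Ccng1 and in 37.5% of all windows. The TATA box (TATAAA) was present in Gadd45g and in 14.2% of all windows, and the cAMP response element (TGACGTCA) in none of the 7 and in 1.83% of all windows. None of these motifs is contained in another. These are matches of letters within short windows and not measured binding sites. On GRCr8, Mdm2 lies at chr7:55176558-55201757, Cdkn1a at chr20:7150820-7161373, Gadd45a at chr4:97484497-97486799, Gadd45b at chr7:9428689-9430991, Ccng1 at chr10:25678503-25684876 and Siva1 at chr6:137526416-137530790. Where on the transcript each array probe lies is not given in the sources used here.

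**Figure D1:**
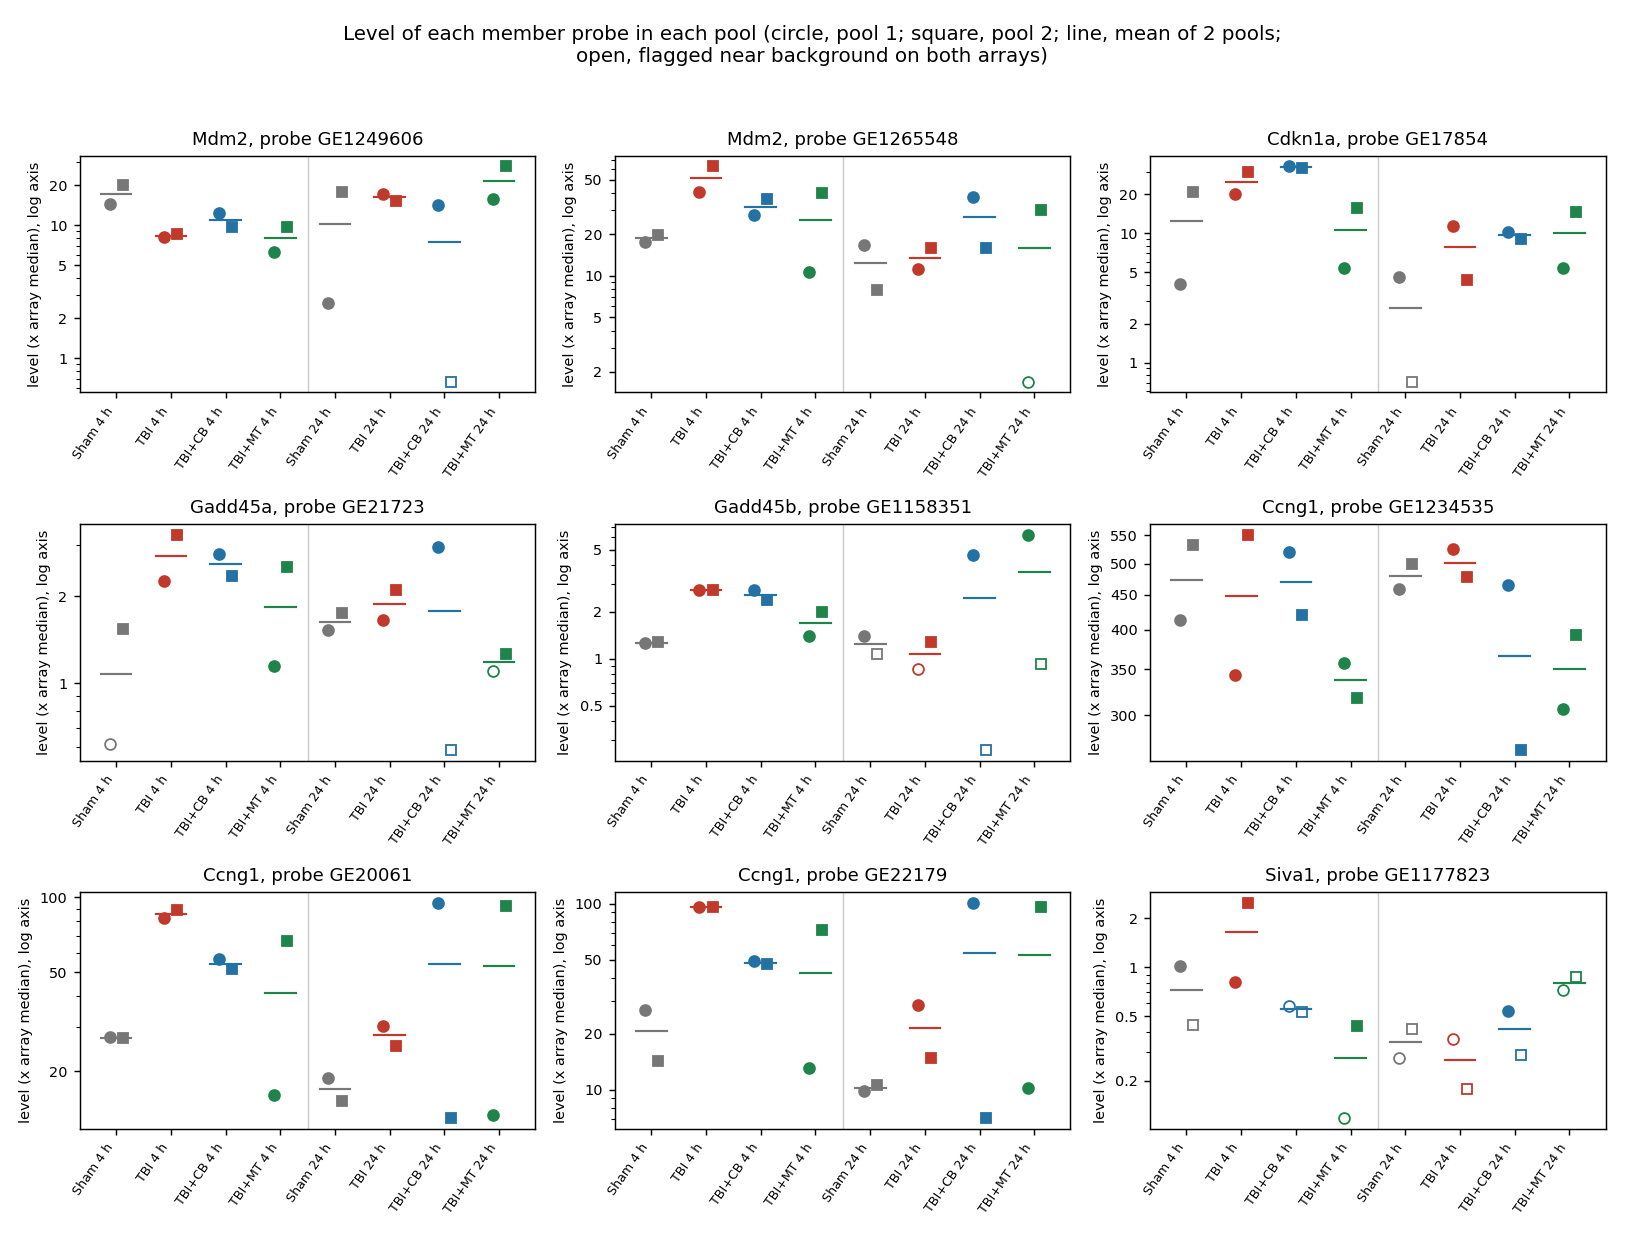
Level of each of the 9 member probes tested in each of the 16 pools, as raw intensity over the array median on a log axis, by group, with open symbols for pools near background on both arrays. The Ccng1 probes GE20061 and GE22179 and the Mdm2 probe GE1265548 are highest in the TBI pools among the 4 h pools, and several probes span a wide range between the pools of the 24 h drug groups.

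Mdm2, the p53 ubiquitin ligase, gave different answers on its probes. On probe GE1265548 the level was 17.6 and 19.9 in the sham 4 h pools, 40.9 and 62.5 after TBI, 27.9 and 36.0 after TBI+CB and 10.6 and 40.02 after TBI+MT. Both TBI 4 h pools were thus above every other 4 h pool, and the TBI+MT pools lay far apart. At 24 h it was 16.8 and 7.89 in sham, 11.1 and 15.8 after TBI, 37.5 and 16.0 after TBI+CB and 1.70, near background, and 30.4 after TBI+MT.

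The 24 h pools of sham and TBI overlapped on this probe, and those of the drug groups were dispersed. The log2 difference between TBI and sham at 4 h was 1.43 ± 1.09 (SE, adjusted p = 0.933), a ratio of 2.70. The log2 difference between TBI+MT and TBI at 4 h was -1.30 ± 1.09 (adjusted p = 0.735), and it was -0.337 without TBI+MT pool 1. At 24 h TBI+MT differed from TBI+CB by -1.78 ± 1.09 on the log2 scale (adjusted p = 0.787), but without TBI+MT 24 h pool 1 the difference was 0.294. None of these differences passed the test.

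On the other Mdm2 probe, GE1249606, the level was 14.4 and 19.996 in the sham 4 h pools, 8.18 and 8.53 after TBI, 12.3 and 9.65 after TBI+CB and 6.28 and 9.73 after TBI+MT. Here both TBI 4 h pools were below both sham pools, which is the opposite order to that on GE1265548. The log2 difference was -1.02 ± 1.17 (adjusted p = 0.933). The 24 h levels were 2.58 and 17.7 in sham, 17.2 and 15.3 after TBI, 14.2 and 0.67, near background, after TBI+CB and 15.6 and 27.6 after TBI+MT.

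The 24 h sham and TBI+CB groups each held 1 low and 1 high pool on GE1249606. The log2 difference from sham was 1.26 ± 1.17 (adjusted p = 1.000) for TBI, but -0.127 without sham 24 h pool 1. Relative to TBI, the TBI+CB log2 difference was -2.40 ± 1.17 (adjusted p = 0.590), and TBI+MT differed from TBI+CB by 2.75 ± 1.17 (adjusted p = 0.787), a ratio of 6.71. Both rest on the dim TBI+CB 24 h pool 2, since without it they were -0.193 and 0.536. Over the 16 pools, log2 levels of the Mdm2 probes had a Pearson r of -0.054 (permutation p = 0.826) and a Spearman rho of -0.241 (permutation p = 0.369).

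Ccng1 encodes cyclin G1, an atypical cyclin and p53 target that binds a regulatory subunit of protein phosphatase 2A and acts on Mdm2. On probe GE22179 the level was 26.9 and 14.4 in the sham 4 h pools, 95.8 and 96.2 after TBI, 49.0 and 47.4 after TBI+CB and 13.1 and 72.3 after TBI+MT. The TBI 4 h pools were above all other 4 h pools, the TBI+CB pools lay between them and sham, and the TBI+MT pools lay far apart. The 24 h levels were 9.82 and 10.6 in sham, 28.5 and 14.8 after TBI, 101 and 7.07 after TBI+CB and 10.2 and 96.2 after TBI+MT.

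The log2 difference between TBI and sham on GE22179 was 2.29 ± 1.24 at 4 h (adjusted p = 0.933), a ratio of 4.88, and 1.01 ± 1.24 at 24 h (adjusted p = 1.000). The 4 h ratio was the highest of the 9 member probes in that comparison, and the TBI and sham pools did not overlap at either time. TBI+MT differed from TBI by -1.64 ± 1.24 at 4 h (adjusted p = 0.735), and without TBI+MT 4 h pool 1 by -0.410. The 4 h TBI+CB pools differed from TBI by -0.99 ± 1.24, without overlap.

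Probe GE20061 of Ccng1 had a similar pattern. Its level was 27.4 and 27.1 in the sham 4 h pools, 82.4 and 88.7 after TBI, 56.2 and 51.6 after TBI+CB and 16.0 and 66.7 after TBI+MT, with 18.7 and 15.2, 30.3 and 25.3, 95.2 and 12.9, and 13.4 and 92.5 in the same order at 24 h. TBI was above sham in both pools at both times, by 1.65 ± 1.00 on the log2 scale at 4 h (adjusted p = 0.933) and by 0.72 ± 1.00 at 24 h. TBI+MT differed from TBI by -1.39 ± 1.00 at 4 h (adjusted p = 0.735), and by -0.360 without TBI+MT 4 h pool 1.

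On the third Ccng1 probe, GE1234535, the pools ran from 267 to 551 and the groups had little order. The 4 h levels were 414 and 532 in sham, 344 and 551 after TBI, 519 and 421 after TBI+CB and 357 and 318 after TBI+MT. The 24 h levels were 459 and 500 in sham, 525 and 478 after TBI, 465 and 267 after TBI+CB and 307 and 393 after TBI+MT. Each group overlapped with its neighbour in the order of levels, and the log2 difference between TBI and sham was -0.11 ± 0.46 at 4 h and 0.06 ± 0.46 at 24 h. Across the 16 pools the probes GE20061 and GE22179 correlated with a Pearson r of 0.982 (permutation p = 1e-05, the smallest that the resamples can give, adjusted p = 0.00013) and a Spearman rho of 0.971, and r was 0.977 without the 2 pools farthest from the median and 0.981 within the 9 pools of run 2. GE1234535 had an r of 0.237 with GE20061 (permutation p = 0.370) and 0.172 with GE22179 (permutation p = 0.524), and -0.177 and -0.261 without the 2 farthest pools. Adjustment was over 13 relations, and slide runs 1 and 3 held too few pools for a value.

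**Figure D2:**
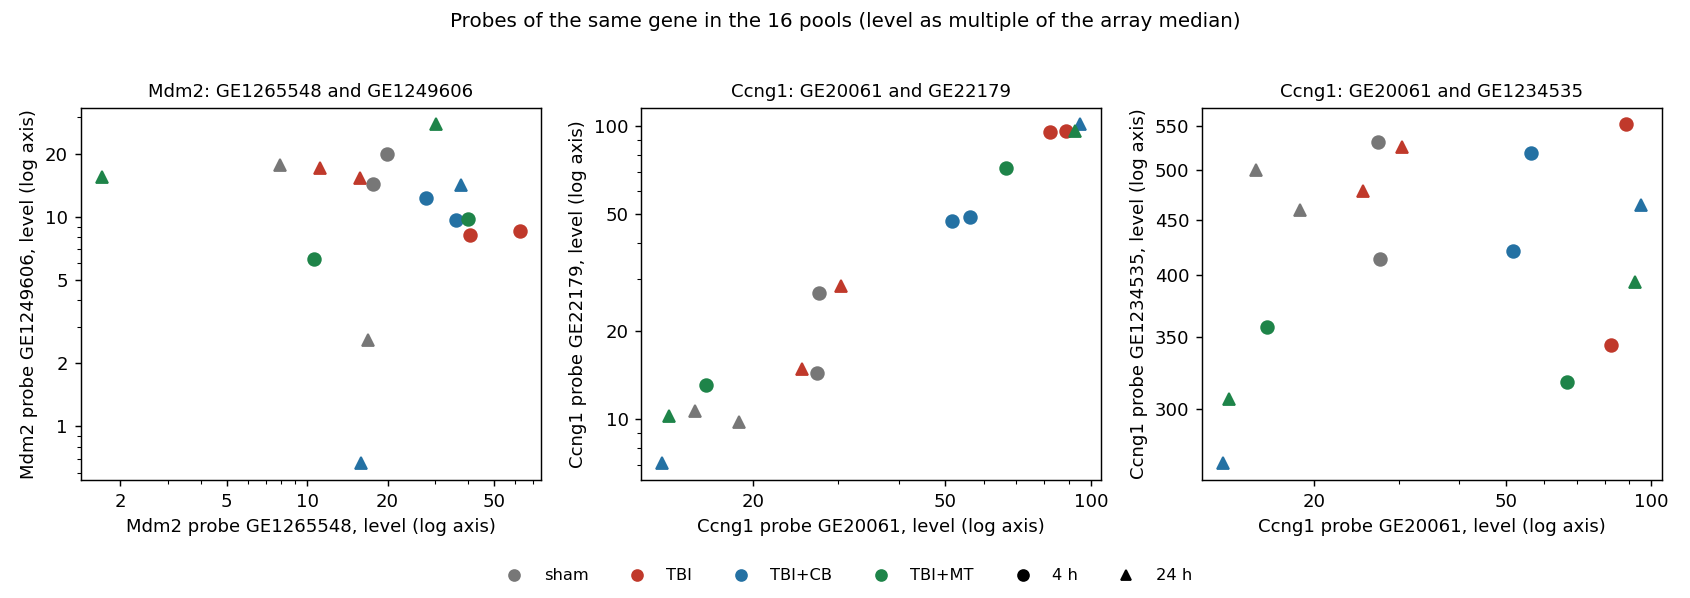
Level (raw intensity over array median, log axes) of one probe against another probe of the same gene, with 1 point for each of the 16 pools, coloured by treatment, circles for 4 h and triangles for 24 h. The Ccng1 probes GE20061 and GE22179 follow each other (r = 0.982), whereas the Mdm2 probes (r = -0.054) and the Ccng1 probes GE20061 and GE1234535 (r = 0.237) scatter.

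Cdkn1a encodes p21, the inhibitor of cyclin-dependent kinases through which p53 stops the cell cycle. On probe GE17854 its level was 4.07 and 20.9 in the sham 4 h pools, 19.99 and 29.7 after TBI, 32.9 and 32.2 after TBI+CB and 5.34 and 15.7 after TBI+MT. The TBI+CB pools were the highest of all 16 and did not overlap with TBI 4 h, and both TBI+MT pools were below both TBI pools. The 24 h levels were 4.61 and 0.71, near background, in sham, 11.4 and 4.33 after TBI, 10.2 and 9.001 after TBI+CB and 5.38 and 14.6 after TBI+MT.

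The log2 difference between TBI and sham for Cdkn1a was 1.40 ± 0.99 at 4 h (adjusted p = 0.933) and 1.96 ± 0.99 at 24 h (adjusted p = 1.000). At 4 h it was 0.223 without sham pool 1 and 2.58 without sham pool 2, and at 24 h it was 0.607 without sham pool 2 and 3.30 without sham pool 1. TBI+MT differed from TBI by -1.41 ± 0.99 at 4 h (adjusted p = 0.735), or -0.635 without TBI+MT pool 1, and from TBI+CB by -1.83 ± 0.99 (adjusted p = 0.999). At 24 h the drug groups were above both sham pools, by 2.41 ± 0.99 for TBI+CB (adjusted p = 0.764) and by 2.28 ± 0.99 for TBI+MT (adjusted p = 0.97). The sham groups themselves differed by -2.35 ± 0.99 between 24 and 4 h (adjusted p = 0.918), with overlapping pools. The 24 h drug groups and sham lie in different slide runs, and so do the sham groups of the different times. The other Cdkn1a probe, GE20890, was near background on all 32 arrays, at 0.05 to 0.65, and was not tested.

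The Gadd45 genes encode small stress proteins that bind p21, PCNA and the kinase MAP3K4 and take part in DNA repair and in p38 and JNK signalling. Gadd45a is a classical p53 target. Its level was 0.62, near background, and 1.54 in the sham 4 h pools, 2.25 and 3.27 after TBI, 2.81 and 2.35 after TBI+CB and 1.15 and 2.52 after TBI+MT. Both TBI and both TBI+CB pools were above both sham pools, and TBI+MT overlapped with TBI.

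The log2 difference of Gadd45a from sham at 4 h was 1.5 ± 0.74 for TBI (adjusted p = 0.933) and 1.42 ± 0.74 for TBI+CB (adjusted p = 1.000). The TBI+CB and sham pools lie in different slide runs at 4 h. The TBI difference was 0.816 without sham pool 1, which was near background, and 2.18 without sham pool 2. The 24 h levels were 1.52 and 1.74 in sham, 1.66 and 2.10 after TBI, 2.96 and 0.59, near background, after TBI+CB and 1.10, near background, and 1.26 after TBI+MT. The 24 h difference between TBI and sham was 0.12 ± 0.74, with overlapping pools.

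Gadd45b, which is also induced by neuronal activity, had a level of 1.25 and 1.28 in the sham 4 h pools, 2.75 and 2.78 after TBI, 2.77 and 2.38 after TBI+CB and 1.39 and 2.00 after TBI+MT. The pools of sham and of TBI were close to each other, the TBI and TBI+CB pools were above both sham pools, and TBI+MT lay between. The log2 difference between TBI and sham was 1.12 ± 1.16 (adjusted p = 0.933), where the SE exceeds what the 4 pools show because the spread is shared over all 8 groups. The 24 h levels were 1.39 and 1.08, near background, in sham, 0.86, near background, and 1.28 after TBI, 4.66 and 0.26, near background, after TBI+CB and 6.26 and 0.93, near background, after TBI+MT.

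In both 24 h drug groups Gadd45b thus had 1 high pool and 1 pool near background. TBI+MT differed from TBI by 1.22 ± 1.16 (adjusted p = 0.929) and from TBI+CB by 1.24 ± 1.16 (adjusted p = 0.787). Without TBI+MT 24 h pool 1 these were -0.176 and -0.160, and without TBI+CB 24 h pool 2 the latter was -0.985, so neither has a direction that holds across pools.

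Siva1 encodes an apoptosis protein that binds receptors of the TNF family and is a p53 target. Its probe was dim, and TBI 4 h was the 1 group with all 4 arrays above background. The probe thus passed the filter only through TBI 4 h, so its higher level there is no independent result. The 4 h levels were 1.01 and 0.44, near background, in sham, 0.81 and 2.50 after TBI, 0.58 and 0.53, all near background, after TBI+CB and 0.12, near background, and 0.43 after TBI+MT. The measured values of both TBI pools were higher than those of the TBI+MT and TBI+CB pools. TBI pool 1, however, lay below the lowest signal above background on the arrays of TBI+MT pool 1 (1.02 and 1.03) and of TBI+CB pool 1 (1.39 and 1.38), so its order against those pools cannot be read. TBI overlapped with sham.

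For Siva1, TBI+MT differed from TBI at 4 h by -2.38 ± 0.72 on the log2 scale (adjusted p = 0.735), with a range from -3.19 without TBI 4 h pool 1 to -1.56 without TBI 4 h pool 2. Since 3 of the 4 TBI+MT arrays were near background, this is a difference of fitted values and no ratio is read from it. TBI+CB, with all arrays near background, was at least 1.37-fold lower than the TBI mean (adjusted p = 0.956). That bound rests on TBI 4 h pool 2, and the fitted difference ran from -2.20 without TBI pool 1 to -0.567 without TBI pool 2. The difference between TBI and sham was 1.34 ± 0.72 (adjusted p = 0.933), with 0.523 without TBI pool 2 and 2.15 without TBI pool 1. At 24 h the pools ran from 0.18 to 0.87, and 1 of the 16 arrays, of TBI+CB pool 1, was above background.

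Ordered by mean log2 level over the 8 groups, TBI 4 h came first for 6 of the 9 probes. For Mdm2 GE1265548 and Ccng1 GE20061 and GE22179 its pools did not overlap with those of the next group, TBI+CB 4 h, and for Gadd45a, Gadd45b and Siva1 they overlapped with the next group. Cdkn1a had TBI+CB 4 h first and TBI 4 h next, each without overlap with the group that followed, and sham 24 h last. Mdm2 GE1249606 had TBI+MT 24 h first, overlapping with sham 4 h, and TBI+CB 24 h last. Most other neighbours in these orders overlapped. How often TBI 4 h came first among all probes was not counted. The array as a whole leaned that way at 4 h, with 69.1% of all probes above sham in TBI. Relative to TBI, 70.4% were lower after TBI+MT and 63.3% after TBI+CB. The filter let Siva1 in only through TBI 4 h, and Gadd45a only through TBI 4 h and TBI+CB 4 h. For both, the filter thus favours a high rank of TBI 4 h.

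**Figure D3:**
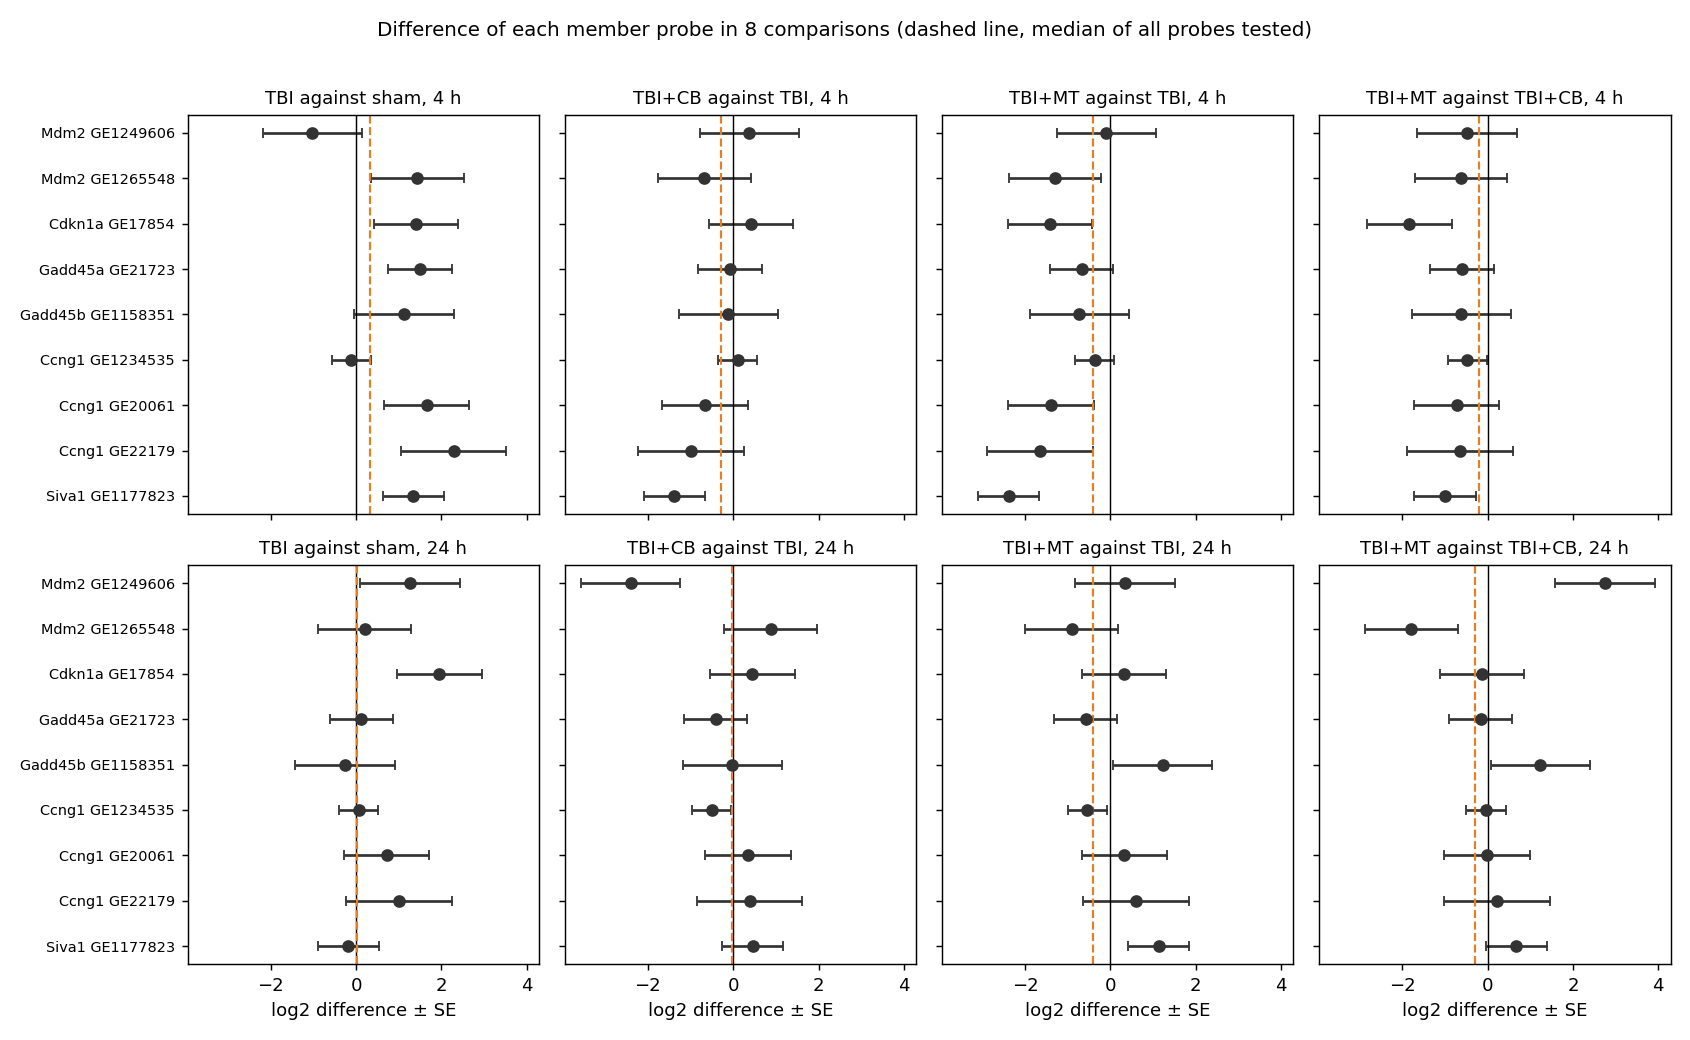
Log2 difference with its standard error for each of the 9 member probes in the 8 comparisons, each between groups of 2 pools. In TBI against sham at 4 h most points lie to the right of 0, as do 69.1% of all probes. In TBI+MT against TBI at 4 h all 9 lie to the left (7 of 9 after quantile scaling), as do 70.4% of all probes. The dashed line marks the median of all probes tested.

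In TBI against sham at 4 h, which asks how the surviving neurons responded early to injury, 7 of the 9 member probes were higher by more than 2-fold, where 15.9% of all 17609 probes tested were. They were those of Cdkn1a, Gadd45a, Gadd45b and Siva1, the Mdm2 probe GE1265548 and 2 of the 3 Ccng1 probes. Siva1 passed the filter only through TBI 4 h, and Gadd45a only through TBI 4 h and TBI+CB 4 h. For both, the filter thus favours a higher value in TBI than in sham. With single pools left out 5 to 7 member probes were more than 2-fold higher. Cdkn1a and Gadd45a were under 2-fold without sham 4 h pool 1 and Siva1 without TBI 4 h pool 2. One, Mdm2 GE1249606, was lower by more than 2-fold (7.33% of all probes). The median log2 difference was 1.40 for the member probes and 0.327 for all probes. For 5 member probes both TBI pools were above both sham pools, as were those of 36.3% of all probes. No member passed limma's test at an adjusted p of 0.05, and 0% of all probes did. An unadjusted p under 0.05 was reached by 0 members and by 3.34% of all probes. Measured from the median of all probes, 6 member probes were more than 2-fold higher, and after quantile scaling of the arrays 4 were, with 7 of 9 still in the higher direction. Since RNA was taken from captured cells in bulk, fewer cells of a type and less RNA per cell cannot be told apart here or in the comparisons that follow.

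At 24 h, 3 of 9 member probes (Mdm2 GE1249606, Cdkn1a and Ccng1 GE22179) were more than 2-fold higher in TBI than in sham against 4.09% of all probes, and none was more than 2-fold lower, against 6.69%. Without sham 24 h pool 1 the difference of GE1249606 was -0.127, and without sham 24 h pool 2 that of Cdkn1a was 0.607. The member median was 0.205 and that of all probes 0.012. An unadjusted p under 0.05 was found for 0 members and 1.85% of all probes, and 0% passed after adjustment. The change of the injury difference from 4 to 24 h was tested as an interaction, and its adjusted p was 1.000 for each of the 9 member probes.

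In TBI+MT against TBI at 4 h, all 9 member probes had a negative difference, as did 70.4% of all probes. By more than 2-fold, 5 were lower, where 25.1% of all probes were lower and 8.19% higher. The 5 were Mdm2 GE1265548, Cdkn1a, Ccng1 GE20061 and GE22179, and Siva1. For 6 probes both TBI+MT pools were below both TBI pools, against 33.5% of all probes. Siva1 is among both counts, with 3 of its 4 TBI+MT arrays near background. Its probe passed the filter only through TBI 4 h, which favours a lower value in TBI+MT. The median difference was -1.30 for the members and -0.404 for all probes, so that the whole array leaned the same way. An unadjusted p under 0.05 was reached by 1 member, Siva1, and by 4.79% of all probes, and 0% passed after adjustment. Without TBI+MT 4 h pool 1 the number of member probes more than 2-fold lower was 1, and without pool 2 it was 6. After quantile scaling it was 2, and 7 of 9 were lower, since Mdm2 GE1249606 then had a difference of 0.41 and Ccng1 GE1234535 of 0.08.

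At 24 h, 2 member probes were more than 2-fold higher after TBI+MT than after TBI, Gadd45b and Siva1, the latter near background in both groups, against 5.39% of all probes. None was more than 2-fold lower, against 13.8%. The member median was 0.331 and the median of all probes -0.397, with 0 members and 5.56% of all probes under an unadjusted p of 0.05 and 0% after adjustment.

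For TBI+CB against TBI at 4 h, Siva1 was the 1 member probe more than 2-fold lower on the fitted scale (15.9% of all probes) and none was more than 2-fold higher (4.55%). Since Siva1 passed the filter only through TBI 4 h, the filter favours this direction. The median was -0.113 for the members and -0.276 for all probes. Cdkn1a was 0.42 ± 0.99 higher, without overlap. Both TBI+CB pools were above both TBI pools for 2 member probes, against 7.48% of all probes. They were below both for 4, among them Siva1, against 34.4%. At 24 h, Mdm2 GE1249606 was more than 2-fold lower (15.2% of all probes) and none higher (14.3%), with medians of 0.343 and -0.037. Unadjusted p under 0.05 was found for 0 members at both times, against 3.45% of all probes at 4 h and 8.28% at 24 h, and 0% passed after adjustment. The TBI+MT, TBI+CB and sham comparisons share the TBI pools, so their differences are not independent.

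MT and CB, compared directly at their single and unequal doses, differed in 1 member probe by more than 2-fold at 4 h, Cdkn1a, which was lower after MT (5.33% of all probes lower, 8.24% higher). All 9 member probes were lower after MT than after CB at 4 h, also after quantile scaling, where 65.4% of all probes were lower before that scaling. The median was -0.623 against -0.202 for all probes. The 9 probes stand for 6 genes, and Siva1 was above background on 1 of 4 TBI+MT arrays and 0 of 4 TBI+CB arrays. The SEs of 0.46 to 1.24 leave room for differences of more than 2-fold that the test would not find. At 24 h, Mdm2 GE1249606 and Gadd45b were more than 2-fold higher after MT (7.04% of all probes) and Mdm2 GE1265548 more than 2-fold lower (22.5%), and all 3 depend on single pools as described. At an unadjusted p of 0.05 there were 0 members at 4 h (3.12% of all probes) and 1 at 24 h (4.99%), and 0% passed after adjustment at either time.

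In the slide runs at 4 h the TBI group is 1 pool, so the spread in these fits comes from the other groups of the run. In run 1, TBI pool 1 against both sham pools had 6 member probes more than 2-fold higher, against 11% of all probes, among them Ccng1 GE22179 at 2.28 and GE20061 at 1.60. Mdm2 GE1249606, at -1.05, was the 1 member probe more than 2-fold lower, against 3.94% of all probes. In run 2, both TBI+MT pools against TBI pool 2 had 5 more than 2-fold lower, against 34.2% of all probes, with Siva1 at -3.19 (adjusted p = 0.0832). In that fit 239 of all 17614 probes passed the adjusted threshold and 0 of the members did. TBI+CB against TBI pool 2 in the same run had 1 member, Siva1, more than 2-fold lower, against 25.4% of all probes, and 84 of all probes and 0 members passed.

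The levels of some members moved with the brightness of the array, measured as its median intensity. Over the 16 pools the log2 level of Mdm2 GE1265548 correlated with the log2 array median with a Pearson r of 0.650 (permutation p = 0.00548, adjusted p = 0.0255) and a Spearman rho of 0.738 (permutation p = 0.00174, adjusted p = 0.0113). For Ccng1 GE20061 r was 0.643 and for GE22179 0.641 (adjusted permutation p = 0.0255 for both), with rho of 0.641 and 0.618. Without the 2 pools farthest from the median r was 0.610, 0.567 and 0.537, and within run 2 it was 0.582, 0.456 and 0.452. The other 6 member probes had an r of -0.003 to 0.439 and did not pass. The permutations shuffled all 16 pools without regard to group or slide run. These p-values therefore do not separate brightness from differences between groups or runs. The brightest pools were TBI+MT 4 h pool 2, TBI 4 h pool 1 and TBI+CB 24 h pool 1, with medians of 62.6, 51.2 and 42.3, and these are among the pools where the 3 probes were high. The part of array brightness in the group differences was not tested.

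**Figure D4:**
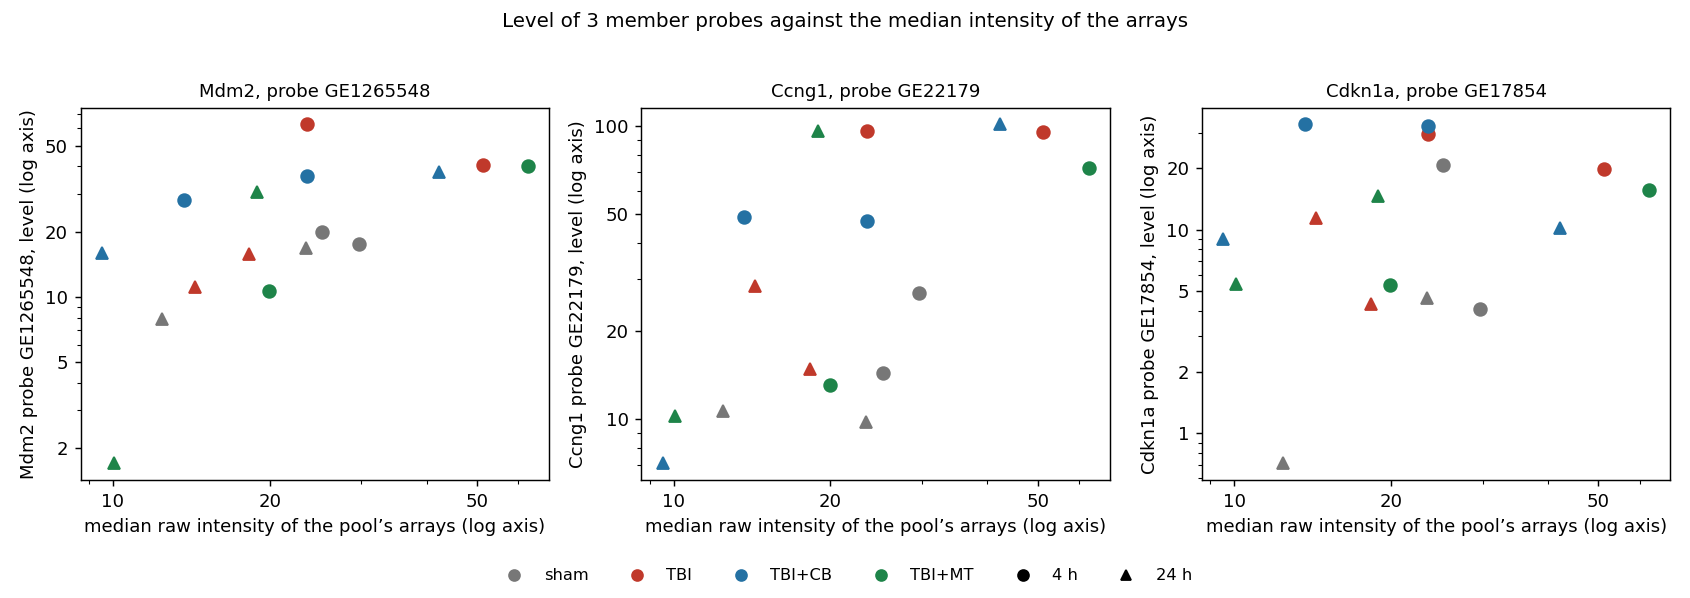
Level of Mdm2 GE1265548, Ccng1 GE22179 and Cdkn1a GE17854 against the median raw intensity of the arrays of the pool, both on log axes, with 1 point for each of the 16 pools, coloured by treatment, circles for 4 h and triangles for 24 h. Mdm2 GE1265548 (r = 0.650) and Ccng1 GE22179 (r = 0.641) are higher in brighter pools, and Cdkn1a (r = 0.319) shows more scatter.

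Markers of cell types were measured beside the members. The summed level of 6 astrocyte markers of 6 was 143 to 256 in the sham 4 h pools, 225 to 505 after TBI, 208 to 220 after TBI+CB and 100 to 179 after TBI+MT, so that TBI was above TBI+MT without overlap, as for 6 of the member probes and 33.5% of all probes. The same held at 4 h for the summed levels of other sets, each over the listed markers that passed the filter. These were the sums of 5 of 8 endothelial and pericyte markers (35.5 to 42.2 after TBI and 20.2 to 20.3 after TBI+MT), 4 of 7 oligodendrocyte markers (131 to 176 and 94.1 to 105) and 7 of 8 microglial markers (39.7 to 51.6 and 29.4 to 33.4). Single markers were not compared between groups. The brightest astrocyte and pyramidal markers, Slc1a3 and Grik4, had median pool levels of 121 and 207. The sum of the microglial markers was 51.2 to 145 in sham at 4 h, and 35.7 to 66.4 in sham against 129 to 146 after TBI, 147 to 153 after TBI+CB and 111 to 168 after TBI+MT at 24 h. That of 5 of 9 pyramidal markers was 258 to 311 in sham 4 h, 280 to 317 in TBI 4 h, 253 to 275 in TBI+MT 4 h and 87.5 to 256 in TBI+CB 24 h. Here too TBI was above TBI+MT at 4 h without overlap. At 4 h TBI and TBI+MT overlapped for the sum of 4 of 6 interneuron markers (75.3 to 117 and 75.6 to 77.6) and for the level of 1 of 5 blood markers (0.66 to 1.28 and 0.96 to 0.98). The part of these cells in the member differences was not tested.

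Of 85 further genes of the pathway, 45 had a probe that passed the filter. None of the 45 passed the test in any of the 8 comparisons, and an unadjusted p under 0.05 was reached by 3 in TBI+CB against TBI at 24 h, by 1 each in TBI+MT against TBI at 4 h and TBI+MT against TBI+CB at both times, and by 0 in the other 4. In TBI against sham at 4 h, 30 were higher and 15 lower, where 69.1% of all probes were higher. By more than 2-fold, 8 were higher (15.9% of all probes) and 1 lower (7.33%). The median of 0.363 was close to the 0.327 of all probes. By role, 6 of 9 cell cycle targets, 7 of 11 death targets, 7 of 10 repair and metabolism targets, 6 of 11 regulators of p53 and 4 of 4 partners of the member proteins were higher. These sets are small, and 69.1% of all probes were higher.

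Among them, Mapk14, the p38 kinase that acts downstream of the Gadd45 proteins, had a level of 39.7 ± 9.63 (SD, n = 2) after TBI and 13.6 ± 0.562 in sham (log2 difference 1.53 ± 0.83, adjusted p = 0.933). Bax, the pore-forming death protein, differed by 1.42 ± 0.89 and Cycs, cytochrome c, by 1.19 ± 1.04. Rchy1, another ubiquitin ligase of p53, differed by 1.24 ± 1.13, and Sfn, the 14-3-3 sigma protein of the cell cycle arrest, by 1.17 ± 0.71. Bax and Sfn were each above background on 4 TBI arrays and 2 sham arrays. They met the filter in TBI 4 h and not in sham 4 h, so the filter can favour this direction. Both are among the genes counted as more than 2-fold higher. Ercc5, an endonuclease of excision repair, differed by -1.46 ± 0.69.

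In TBI+MT against TBI at 4 h, 12 of the 45 were higher and 33 lower, where 70.4% of all probes were lower. By more than 2-fold, 3 were higher (8.19% of all probes) and 12 lower (25.1%). The median of -0.481 compares with -0.404 over all probes. Cd82, a membrane tetraspanin, differed by -2.30 ± 0.96 (adjusted p = 0.735), Cycs by -1.90 ± 1.04, Ccng2, cyclin G2, by -1.70 ± 1.02, and Ercc5 by 1.34 ± 0.69. In TBI+CB against TBI at 4 h, 13 had a positive and 32 a negative difference, and the median of -0.373 compares with -0.276 over all probes. The 10 repair and metabolism targets all had a negative difference, where 63.3% of all probes did, and 0 of the 10 reached an unadjusted p under 0.05, with Igfbp3 at -1.36 ± 0.75 and Xpc, a sensor of DNA damage, at -1.35 ± 0.83. Ercc5 differed between the drugs at 4 h, at least 3.23-fold higher after MT than after CB, where it was near background (adjusted p = 0.999), and at 24 h by 1.72 ± 0.69 (adjusted p = 0.787).

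At 24 h the list had 21 higher and 24 lower in TBI against sham (51% of all probes higher). It had 15 and 30 in TBI+MT against TBI (25.7%) and 25 and 20 in TBI+CB against TBI (48.7%). In the last, Hipk2, a kinase that phosphorylates p53, differed by -1.68 ± 0.58 (adjusted p = 0.590), Perp, a death effector, by -1.13 ± 0.50 and Bbc3, which encodes PUMA, by -0.99 ± 0.51. Sesn1, an antioxidant p53 target, was at least 2.82-fold higher (adjusted p = 0.590), since it was near background in TBI. The direct comparison of the drugs had 17 higher and 28 lower after MT at 4 h (34.6% of all probes higher). At 24 h it had 18 and 27 (37.6%).

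**Figure D5:**
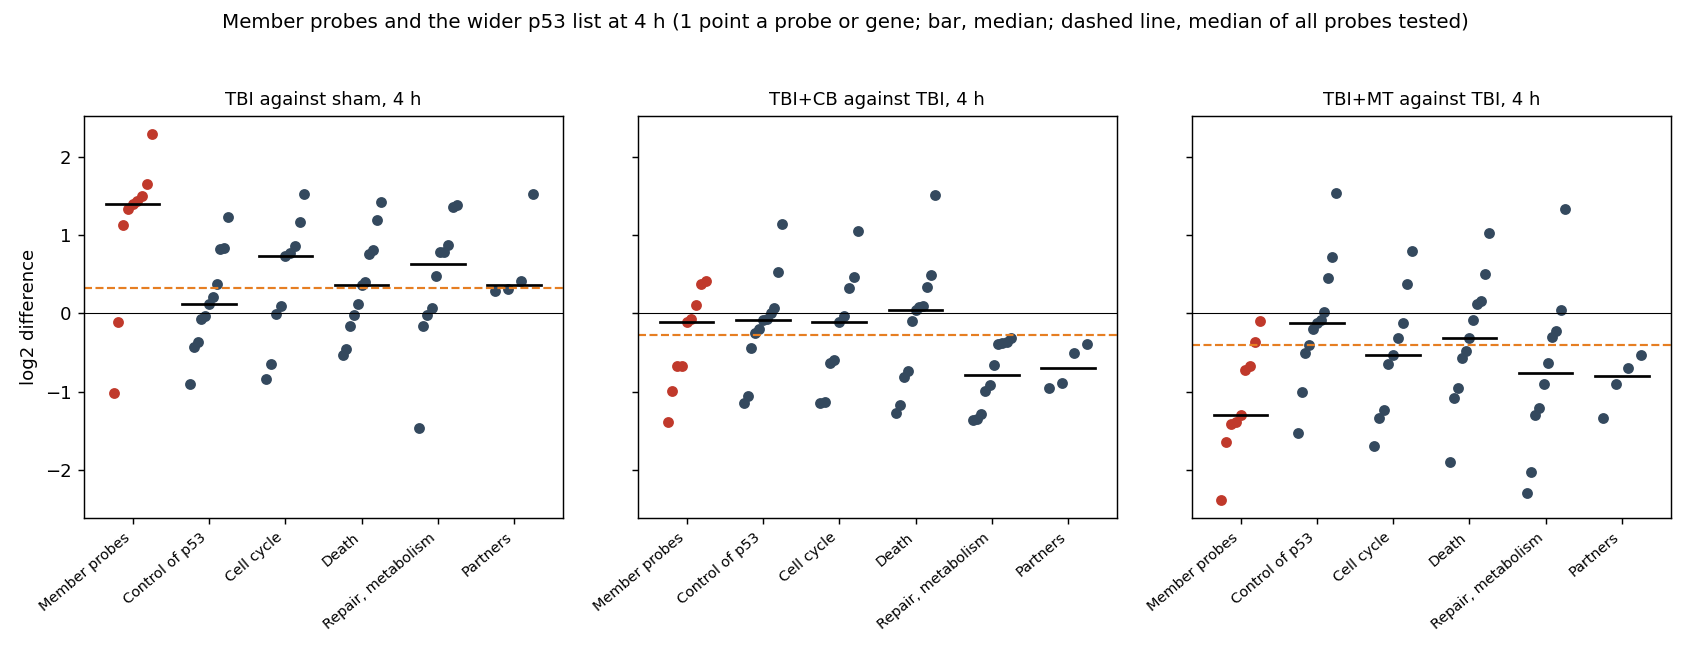
Log2 difference at 4 h of the 9 member probes (red) and the 45 further p53 pathway genes (dark, by role) in TBI against sham, TBI+CB against TBI and TBI+MT against TBI, with a bar for the median of each set and a dashed line for that of all probes tested. The member medians of 1.40 in TBI against sham and -1.30 in TBI+MT against TBI lie farther from 0 than the all-probe medians of 0.327 and -0.404, and the medians of the further genes scatter about those lines.

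The genes whose levels followed those of a member most closely over the 16 pools were taken from 8184 named genes. For Mdm2 GE1265548 they were Hbs1l (r = 0.986), C10h5orf15 (0.981) and Srprb (0.980), and for Cdkn1a they were Ier3 (0.934), Tmem86a (0.842) and Cxcl9 (0.830). For Gadd45a they were Zyx (0.951), Srpk1 (0.893) and Efnb1 (0.888), and for Gadd45b they were Pianp (0.865), Ranbp1 (0.851) and Ppp1cc (0.814). Ccng1 GE1234535 was followed by Gpr162 (0.929), Tomm22 (0.919) and Zdhhc3 (0.916), and Siva1 by G4 (0.888), Tac3 (0.877) and Nsmce2 (0.849). These points share arrays and array brightness, and the highest of many correlations is high in any such search.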

How the data were processed

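The deposited scanner files hold the raw intensity of each spot from CodeLink Expression Analysis 4.1.0.29054, per the file headers, for RNA amplified in 2 rounds; values below 0 point to a subtracted background, which no file states. The genome build of the probe design is not given in the sources used here, and probes were named through the platform annotation (16878 with 1 symbol, 182 with several, 16789 with none), with symbols of 16834 brought up to date by gene number. The authors' processed intensity values were used as an alternative.

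Each raw value was expressed as a multiple of its array's median, with a floor of 0.1, on the log2 scale. Irregular, contaminated and masked spots were left out, so that Siva1 in TBI+MT 24 h pool 2 rests on 1 array. Duplicates were averaged, and a probe was tested if some group had all 4 of its arrays above background. limma 3.58.1 (R 4.3.3, data.table version 1.17.8) fitted all 8 groups together (residual degrees of freedom 8, prior 3.87), with Benjamini-Hochberg adjustment over all probes kept within a comparison (threshold 0.05), after testing on simulated data. A fold against a group near background on all arrays is a bound. It uses the larger of the spot's own value and the lowest signal above background on its array. Some spots marked near background exceeded that lowest signal, such as Gadd45a on array a of TBI+MT 4 h pool 1 (1.07 against 1.02). The folds given as at least are therefore approximate.

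Members, gene lists and tests were chosen with earlier results of these data known. Every member probe is shown. A difference is given with its error where it exceeded 2-fold or an unadjusted p of 0.05, with others added for completeness, and of the wider list at most 2 genes per role and comparison with the smallest p. Correlations across pools used 100000 permutations, which kept neither groups nor slide runs together. All tests were two-sided. Alternatives covered scaling, floor, filters, flags, duplicate arrays, slide run, variance trend, replicate block and each pool left out. The number of arrays limits the precision.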

Additional observations from a re-analysis of the deposited data

Results flagged for a closer look

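In 3 cases the measured values of both pools of a drug group lay on one side of both TBI pools at 4 h and on the other side at 24 h. The share of all probes with such a change was not counted. Separation at a single time was common. For TBI+MT, 33.5% of all probes were lower at 4 h and 5.84% higher at 24 h. For TBI+CB, 34.4% were lower and 7.48% higher at 4 h, and 27.2% were lower and 16.3% higher at 24 h. Siva1 after TBI+MT differed from TBI by -2.38 on the log2 scale at 4 h, where 3 of 4 TBI+MT arrays were near background. At 24 h it differed by 1.13, where both groups were near background on every array. The order of its pools therefore cannot be read at 24 h, nor fully at 4 h. The test of the change between the times gave 3.51 ± 1.01 (adjusted p = 0.980). The Mdm2 probe GE1249606 after TBI+CB differed by 0.381 at 4 h and -2.40 at 24 h, a change of -2.79 ± 1.65 (adjusted p = 0.571), and TBI+CB 24 h pool 2 was near background. The other Mdm2 probe, GE1265548, differed by -0.675 and 0.882 in the same comparisons, a change of 1.56 ± 1.54 (adjusted p = 0.634), so that the Mdm2 probes moved in opposite directions between the times. None of these changes passed the test.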

How the results depend on the processing

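Of 763 recomputed values of the 24 member differences named by rule, 756 kept their direction, and none passed the adjusted threshold under any alternative (lowest adjusted p = 0.0832). The number of member probes past that threshold was 0 in 260 of 260 recomputed counts. Over all probes some alternatives gave calls: within slide run 2, 239 in TBI+MT against TBI and 84 in TBI+CB against TBI at 4 h; with slide run as a block, 49 in the former; and without TBI 4 h pool 1, 49 in the former and 48 in TBI against sham at 4 h. Every other alternative gave at most 15 in a comparison. The 7 member probes more than 2-fold higher in TBI than in sham at 4 h became 4 with quantile scaling and 4 of the 6 that pass the methods' filter on agreement of arrays, and 5 to 7 with single pools left out. The 5 more than 2-fold lower in TBI+MT than in TBI at 4 h became 2 with quantile scaling, 0 of the 3 left by the methods' filter, and 1 to 6 with single pools left out. At 24 h, 4 differences reversed. With single pools left out, Mdm2 GE1249606 in TBI against sham ran from -0.127 to 2.65, Gadd45b in TBI+MT against TBI from -0.176 to 2.62, Mdm2 GE1265548 in TBI+MT against TBI+CB from -3.86 to 0.294 and Gadd45b in the same comparison from -0.985 to 3.46, with -0.160 without TBI+MT 24 h pool 1. Without the 2 dimmest pools, an alternative chosen after seeing the data, Gadd45b was -0.176 in TBI+MT against TBI and -2.38 in TBI+MT against TBI+CB. The cause of these reversals beyond the pools removed was not tested. With the pool number as a replicate block the counts stayed 7 and 5 with 0 past the threshold. The labels do not say that equal numbers pair pools, and deviations of same-numbered pools correlated at -0.35 to 0.288. With quantile scaling 21 of 80 group levels of the member probes moved by more than the SD between pools, and 3 of 80 with the authors' processed table. The normexp background correction was not run, since the files give no local background. With slide run as a block the 24 h drug comparisons with TBI could not be fitted. Probes near background, above all Siva1 and the Gadd45 genes, limit what small differences can show.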
